A study of Mus musculus with 8 samples.

Results

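The transcriptome of vehicle-treated bEnd.3 cells is described here from 4 RNA-seq libraries, which are 4 of the 8 libraries of a study of the response of these cells to Norrin. The 4 libraries were chosen by their titles, which name vehicle replicates 1 to 4, and no comparison with Norrin-treated cells was made. bEnd.3 is an immortalised mouse line of brain endothelial cells, obtained with the polyoma middle T oncogene, so it is a single proliferating line and not freshly isolated brain endothelium. The cells were grown in high-glucose DMEM with 10% fetal bovine serum and 1% penicillin and streptomycin. Vehicle was phosphate-buffered saline with 0.1% bovine serum albumin per the series design. The sample titles say vehicle, while a treatment tag says untreated and a protocol says non-treated. Treatment began 24 h after seeding and lasted 24 h. The labels name the 4 cultures biological replicates and say nothing more of what separated them, so their spread may be partly technical. Total RNA was depleted of ribosomal RNA and sequenced in pairs of 150 bases after a low-input library kit.

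Brain endothelial cells line the capillaries of the brain and form the blood-brain barrier. They are joined by tight junctions built on claudin-5 and occludin, carry glucose and amino acids through solute carriers, return drugs to the blood through ABC efflux pumps and keep vesicular transport low. Endothelium elsewhere can be fenestrated, and its pores are spanned by diaphragms of the protein PLVAP. Arteries, veins and lymphatic vessels each have their own set of receptors and transcription factors, with Notch signalling on the arterial side, NR2F2 on the venous side and PROX1 in lymphatic vessels.

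The label was checked first with 6 markers, and the levels are given in CPM, counts per total of the library scaled by TMM (the CPM of edgeR). Cdh5, which encodes VE-cadherin, the adhesion molecule of endothelial adherens junctions, was at 2088, 2066, 2140 and 2160 CPM in replicates 1 to 4. Pecam1, encoding the junctional adhesion molecule CD31, was at 1588, 1519, 1521 and 1527 CPM. Kdr, encoding the main VEGF receptor VEGFR2, was at 1026, 1033, 1035 and 1020 CPM. The CV between the 4 cultures (coefficient of variation, SD over mean) was 2.08, 2.15 and 0.651%, and Pecam1 was highest in replicate 1, above a narrow group of the other libraries. They stood at ranks 29, 46 and 82 by mean CPM among the 15452 rows of the table.

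Plvap, encoding the diaphragm protein, was at 343, 323, 323 and 351 CPM, rank 413. Flt4, encoding VEGFR3, a receptor of lymphatic and sprouting endothelium, was at 189, 193, 184 and 198 CPM, rank 936. Lyve1, encoding a hyaluronan receptor of lymphatic endothelium, was at 46.4, 48.6, 49.8 and 45.5 CPM, rank 3994. All 6 markers were thus at 45.5 CPM or more in every library. A per-length scale, CPM per kilobase of the gene length behind the authors' RPKM, put Cdh5 at 897 ± 18.7 (SD, n = 4), Pecam1 at 734 ± 15.8, Kdr at 255 ± 1.66, Plvap at 254 ± 10.7, Lyve1 at 49.7 ± 2.04 and Flt4 at 46.7 ± 1.50. On that scale Plvap overlapped Kdr, and Lyve1 overlapped Flt4, while the other neighbours in this order did not overlap.

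**Figure D1:**
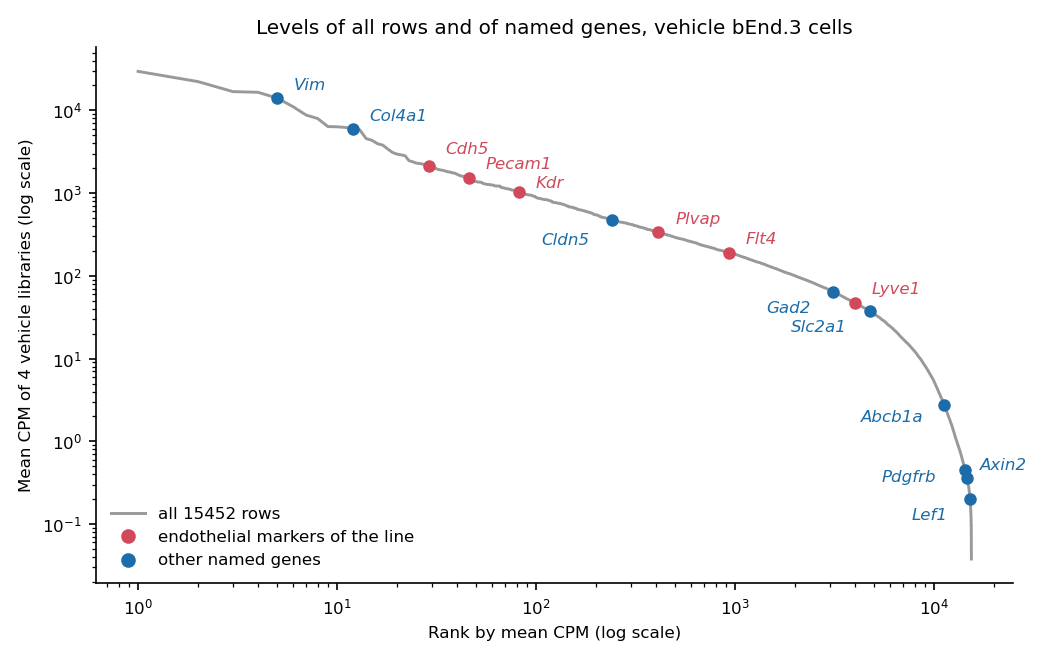
Mean CPM of the 4 vehicle libraries (log scale) against rank (log scale) for all 15452 rows, with the 6 endothelial markers of the line in red and other named genes in blue. Cdh5 at rank 29, Pecam1 at 46 and Kdr at 82 sit on the upper shoulder, Lyve1 at 3994 sits near Slc2a1 at 4771, and Axin2 and Lef1 lie at the lower end, below 1 CPM.

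Sequences upstream of 4 endothelial genes are shown because they belong to genes of the same cell type whose levels in these cultures span from 1164 to 191 CPM. They are the 250 bases before the RefSeq start in GRCm38.p6, read in the direction of transcription. Capitals mark GGAAG or its reverse complement CTTCC, a core recognised by ETS factors, which are the main transcription factors of endothelial genes. The windows are chr5:75978456-75978705 on the minus strand for Kdr, chr4:118489850-118490099 on the minus strand for Tie1, chr11:49609429-49609678 on the plus strand for Flt4 and chr16:18776597-18776846 on the plus strand for Cldn5.
Kdr: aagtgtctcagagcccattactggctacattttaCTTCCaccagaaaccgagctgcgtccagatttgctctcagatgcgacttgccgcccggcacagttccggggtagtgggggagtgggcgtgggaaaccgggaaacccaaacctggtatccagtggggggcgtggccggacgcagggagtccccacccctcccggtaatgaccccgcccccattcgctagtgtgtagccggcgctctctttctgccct
Tie1: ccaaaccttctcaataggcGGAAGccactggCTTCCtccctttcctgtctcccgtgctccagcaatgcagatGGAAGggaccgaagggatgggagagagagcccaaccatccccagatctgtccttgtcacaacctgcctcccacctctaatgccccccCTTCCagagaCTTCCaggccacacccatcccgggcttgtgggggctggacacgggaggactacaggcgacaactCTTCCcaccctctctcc
Flt4: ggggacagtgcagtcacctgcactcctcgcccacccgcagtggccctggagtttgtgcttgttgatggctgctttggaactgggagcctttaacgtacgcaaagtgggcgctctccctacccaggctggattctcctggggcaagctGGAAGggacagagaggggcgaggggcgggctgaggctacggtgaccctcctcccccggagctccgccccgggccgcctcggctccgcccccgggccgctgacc
Cldn5: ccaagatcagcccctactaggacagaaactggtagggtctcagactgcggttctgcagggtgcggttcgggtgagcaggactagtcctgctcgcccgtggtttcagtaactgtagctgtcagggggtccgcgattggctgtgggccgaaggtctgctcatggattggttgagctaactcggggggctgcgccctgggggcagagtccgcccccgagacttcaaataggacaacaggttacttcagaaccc
The Tie1 window held 6 matches, those of Kdr and Flt4 held 1 each, and that of Cldn5 held 0, which says only that these letters are not in that window. The core was common: 63.6% of all 27025 RefSeq promoter windows of 250 bases held it on either strand, as did 68.0% of the 9303 windows of genes at 1 CPM or more in all 4 libraries. Of the 24 pan-endothelial genes listed, 13 matched a window and 11 of those held the core (84.6%). Another 3 motifs were counted in the same windows on both strands, and none of them is contained in another. GATAAG, bound by GATA factors, was in 6.60% of all windows, 4.14% of the 9303 and 1 of the 13. ACAAT, bound by SOX factors, was in 28.3% of all windows, 18.1% of the 9303 and 6 of the 13. TATAAA, the TATA box, was in 13.0% of all windows, 6.30% of the 9303 and 2 of the 13. The windows were matched by symbol, and Cdh5, Pecam1, Plvap, Lyve1 and Nos3 had no entry.

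Of the 15452 rows, 12207 (79%) were at 1 CPM or more in all 4 libraries, 8084 (52.3%) at 10 CPM or more, 1876 (12.1%) at 100 CPM or more and 82 (0.531%) at 1000 CPM or more. These shares are the background for every count of list members given below. Another 1597 rows were below 1 CPM in all 4 libraries and 1648 had libraries on both sides of it. The authors' table holds no row with a vehicle RPKM under 0.1, so a listed gene without a row was not analysed here and its level is not known from these data. Total counts ran from 12463942 to 15220576 per library, and 3 counts correspond to 0.193 to 0.242 CPM, a limit that covers counting error only. In bulk libraries, fewer cells of a type and less RNA per cell cannot be told apart.

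Pan-endothelial genes were among the most abundant mRNAs of the line. All 24 listed genes had a row, 23 of them were at 1 CPM or more in every library and 21 (87.5%) at 100 CPM or more, against 12.1% of all rows. Their median level was 343 CPM, against 13.6 CPM for all rows. Tie1, encoding an orphan receptor that modulates angiopoietin signalling, was at 1253, 1146, 1148 and 1109 CPM, with replicate 1 the highest. Nos3, the endothelial nitric oxide synthase gene, was at 2073, 1989, 2001 and 2036 CPM, rank 31, and was listed with the genes of vessel tone. Ptprb, the phosphatase VE-PTP that dephosphorylates VE-cadherin and TIE2, was at 837 ± 20.4 CPM (SD, n = 4).

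The middle of the list held surface proteins of vessels: Mcam at 625 ± 22.4 CPM, Cd34 at 499 ± 24.0 CPM, Esam at 446 ± 13.8 CPM and Eng, the TGF-beta coreceptor endoglin, at 280 ± 12.8 CPM. Vwf, encoding the clotting factor stored in endothelial granules, was at 365, 355, 367 and 327 CPM, with replicate 4 the lowest. At the lower end were Clec14a at 87.9 ± 4.33 CPM and Myct1 at 49.6 ± 4.24 CPM. Tmem204 was the exception, at 0.878, 1.70, 2.06 and 2.82 CPM, and was the only member on both sides of 1 CPM. The summed level of the list ranged from 11865 to 12170 CPM over the 4 libraries.

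**Figure D2:**
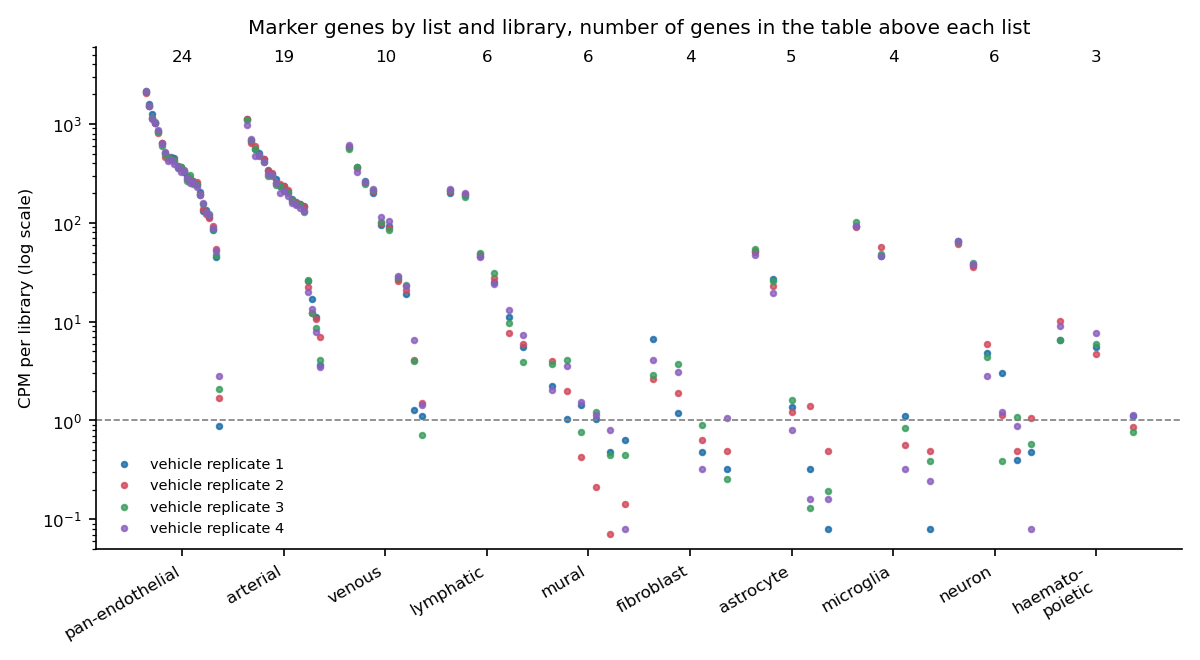
CPM (log scale) of each listed gene in each of the 4 vehicle libraries, by marker list, with the number of genes that had a row above each list and 1 CPM as the dashed line. Most pan-endothelial and arterial genes lie above 100 CPM, while mural and fibroblast genes lie below 10 CPM in every library.

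Among the VEGF and Tie receptors, the per-length order began with Tie1 at 342 ± 18.2 and Kdr at 255 ± 1.66 CPM per kb, whose libraries did not overlap. Flt1, encoding VEGFR1, a decoy for VEGF-A, followed at 83.6 ± 1.85 CPM per kb, and Kdr lay 3.05-fold above it. Flt1, the coreceptor genes Nrp1 (78.9 ± 4.30) and Nrp2 (77.1 ± 3.00) overlapped as neighbours. Tek, encoding the angiopoietin receptor TIE2, was at 51.5 ± 4.60 CPM per kb and overlapped Flt4 at 46.7 ± 1.50. Tek was also the receptor with the largest spread of these 7, at 132, 138, 155 and 159 CPM. The receptor list covered the VEGF, Tie, TGF-beta and FGF families and also held Pdgfrb and Met. Of its 18 genes with a row, 15 (83.3%) were at 1 CPM or more, against 79% of all rows. At 100 CPM or more, the number was 12 (66.7%), against 12.1%. The TGF-beta and BMP receptor genes Acvrl1 (427 ± 17.0 CPM), Tgfbr2 (404 ± 12.3 CPM) and Bmpr2 (138 ± 5.66 CPM) were each above 100 CPM in every library, while Tgfbr1 was at 15.9 ± 1.50 CPM. Per length these 4 were at 275, 227, 44.2 and 12.3 CPM per kb. Bmpr1a was at 0.160, 1.06, 0.129 and 0.161 CPM, where 3 libraries lie at or below the level of 3 counts and replicate 2 alone is higher.

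Transcription factor genes of endothelium were present at moderate levels, with 23 of 23 at 1 CPM or more, against 79% of all rows. A level of 100 CPM or more was reached by 9 (39.1%), against 12.1%. Epas1, the hypoxia-inducible factor HIF2-alpha, led at 1126, 1121, 1085 and 986 CPM, with replicate 4 the lowest. On the per-length scale the ETS family ran from Elk3 (176 ± 4.44 CPM per kb) and Erg (160 ± 11.7), which overlapped, to Fli1 (138 ± 4.18), Ets2 (111 ± 7.78), Ets1 (63.8 ± 5.62) and Etv6 (21.0 ± 1.84), each separate from its neighbour. Of the SoxF factors, which act in arterial and lymphatic specification, Sox17 (184 ± 11.8 CPM per kb) lay 1.30-fold above Sox18 (141 ± 8.56), and Sox18 lay 5.08-fold above Sox7 (27.8 ± 1.49). The flow-responsive factor genes Klf2 and Klf4 were at 139 ± 6.98 and 94.9 ± 8.28 CPM. Foxc2 (5.69 ± 1.43 CPM), Lyl1 (5.12 ± 1.07 CPM) and Foxc1 (3.58 ± 1.29 CPM) were the lowest of the list, and Etv2 and Tbx1 were not analysed here.

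Junction genes differed widely among themselves. The adherens junction list was high as a whole, with 12 of 12 members at 1 CPM or more, against 79% of all rows. Its members at 100 CPM or more numbered 9 (75%), against 12.1%. Below Cdh5 stood the catenin genes that tie cadherins to actin, Ctnnb1 at 1121 ± 36.7 CPM, Ctnna1 at 869 ± 19.4 CPM and Ctnnd1 at 321 ± 11.1 CPM. Cdh2, the N-cadherin gene, was at 51.2, 45.0, 49.0 and 44.6 CPM. On the per-length scale Cdh2 was at 17.4 CPM per kb and Cdh5 at 897 CPM per kb, with no overlap between libraries.

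Of 25 tight junction genes listed, 16 had a row. Of these 15 (93.8%) were at 1 CPM or more, against 79% of all rows, and 4 (25%) at 100 CPM or more, against 12.1%. Cldn5, the dominant claudin of brain endothelium, was at 496, 489, 462 and 460 CPM, rank 242. Ocln, encoding occludin, was at 13.2, 11.2, 6.77 and 8.70 CPM, with replicates 1 and 2 above 3 and 4. Cldn12, another claudin reported in brain endothelium, was at 1.60, 2.69, 2.45 and 3.22 CPM. Per length, Cldn5 (725 ± 28.2 CPM per kb) lay 105-fold above the next member, Cldn15 (6.91 ± 2.94), and 3 neighbours, Cldn15, Ocln (6.36 ± 1.79) and Cldn12 (3.39 ± 0.922), overlapped in turn. Cldn10 was at 0.178 ± 0.0737 CPM per kb and its 4 libraries lay below the level of 3 counts. Cldn1, Cldn3 and Cldn11 were not analysed here.

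Scaffold and adaptor genes of tight junctions spanned a wide range. Cgnl1, which encodes the junction adaptor paracingulin, was at 2300, 2249, 2283 and 2286 CPM, rank 26, with a CV of 0.952%. Tjp1, encoding ZO-1, was at 1049 ± 14.0 CPM. Per length they were at 585 and 194 CPM per kb, below Cldn5 and above Ocln. Other scaffold and polarity genes were lower per length, with Mpdz at 16.4 ± 0.103, Magi3 at 14.9 ± 1.41, Pard3 at 9.21 ± 0.835 and Magi1 at 6.49 ± 0.515 CPM per kb, the last overlapping Ocln. Among the junctional adhesion molecules, Esam (240 ± 7.45 CPM per kb) lay 2.27-fold above Jam2 (106 ± 13.6), which overlapped F11r (94.7 ± 1.27), and Jam3 was at 37.4 ± 0.252 CPM per kb.

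Of 24 genes listed for solute carriers of the blood-brain barrier, 14 had a row. Of these 12 (85.7%) were at 1 CPM or more, against 79% of all rows, and 3 (21.4%) at 100 CPM or more, against 12.1%. Those 3 were Slc3a2, Slc6a6 and Slc9a3r2. Slc9a3r2, the highest at 253 ± 6.57 CPM, encodes a regulator of a carrier and not a carrier, so it raises these counts. The median level was 27.8 CPM, against 13.6 CPM for all rows. Slc2a1, encoding the glucose transporter GLUT1 that marks barrier endothelium, was at 35.2, 35.6, 35.1 and 44.2 CPM, rank 4771, with replicate 4 above the other members. Plvap, which marks endothelium without a barrier, lay above Slc2a1 in every library, at 254 ± 10.7 against 25.5 ± 3.05 CPM per kb. The amino acid transporter subunit genes Slc3a2 and Slc7a5 were at 145 ± 4.42 and 32.5 ± 3.09 CPM, and the lactate transporter gene Slc16a1 at 12.4 ± 1.87 CPM. The organic anion carriers Slco1c1 and Slco1a4 and the lipid carrier Mfsd2a were not analysed here.

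Of the efflux pump genes with a row, 7 of 7 were at 1 CPM or more, against 79% of all rows. Abca1, the cholesterol exporter gene, was at 740, 668, 714 and 746 CPM, rank 140, and led the list per length at 106 ± 5.24 CPM per kb. Among the ABCB, ABCC and ABCG pumps the per-length order was Abcc5 (50.3 ± 1.78 CPM per kb), Abcg2 (35.3 ± 3.30), Abcc1 (30.5 ± 1.47), Abcc4 (13.8 ± 1.56), Abcb1b (12.4 ± 0.945) and Abcb1a (0.718 ± 0.106). Abcc4 and Abcb1b overlapped, and the other neighbours did not. Abcg2 encodes the breast cancer resistance protein and the Abcb1 pair encodes P-glycoprotein, both main drug pumps of the barrier. The order of the P-glycoprotein genes was marked: Abcb1b was at 43.2, 49.0, 51.4 and 45.8 CPM and Abcb1a, the form that predominates in mouse brain capillaries in vivo, was at 2.32, 3.19, 2.51 and 2.98 CPM. Every Abcb1b library lay above every Abcb1a library, by 17.2-fold in the mean per length, although reads shared by these similar genes may be split by the counting.

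The 250 bases before the RefSeq start of the pair are shown because these neighbouring genes encode close forms of the same pump at such different levels. They lie at chr5:8566841-8567090 for Abcb1a and at chr5:8797897-8798146 for Abcb1b, both on the plus strand of GRCm38.p6, with the ETS core again in capitals.
Abcb1a: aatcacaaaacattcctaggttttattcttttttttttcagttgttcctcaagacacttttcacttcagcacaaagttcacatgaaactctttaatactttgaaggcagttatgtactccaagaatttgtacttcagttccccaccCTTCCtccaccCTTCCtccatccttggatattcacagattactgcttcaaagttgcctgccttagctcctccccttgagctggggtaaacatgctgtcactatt
Abcb1b: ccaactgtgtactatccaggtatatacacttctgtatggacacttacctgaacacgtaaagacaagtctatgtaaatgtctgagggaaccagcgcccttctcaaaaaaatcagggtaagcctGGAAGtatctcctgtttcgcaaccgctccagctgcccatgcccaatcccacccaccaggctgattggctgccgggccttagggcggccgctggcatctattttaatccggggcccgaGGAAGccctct
Both windows held 2 matches to the core. The Abcb1a window had a GC content of 40.4% and 0 CpG dinucleotides, and the Abcb1b window 52.8% and 9. The endothelial windows held 16 CpG for Kdr and for Flt4, 12 for Cldn5 and 6 for Tie1, at 61.6, 68.4, 59.6 and 60.4% GC. Bases just after the RefSeq start were found near the beginning of a GENCODE transcript of the same gene for Kdr, Cldn5 and Abcb1b and not for Tie1, Flt4 and Abcb1a. Whether these RefSeq starts are the ones used in bEnd.3 cells was not tested.

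Genes of transcytosis, whose receptors ferry iron, lipoproteins and insulin across endothelium, were at moderate levels. All 11 were at 1 CPM or more, against 79% of all rows. Only the clathrin heavy chain gene Cltc (1463 ± 12.9 CPM), which is not a receptor gene, was at 100 CPM or more. That is 9.09% of the list, against 12.1% of all rows. Tfrc, the transferrin receptor gene, was at 63.2 ± 5.64 CPM and Insr at 54.8 ± 2.84 CPM. Lrp1, a large lipoprotein receptor gene, was at 87.7, 62.9, 98.7 and 105 CPM, with replicate 2 the lowest and a CV of 20.9%. Of genes of caveolae, the membrane pits of vesicular transport, 6 of 7 (85.7%) were at 100 CPM or more, against 12.1% of all rows. Cavin1 (Ptrf in the table), which shapes caveolae, was at 1308, 1330, 1271 and 1276 CPM, and Cav1, the caveolin-1 gene, at 309, 313, 312 and 307 CPM.

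Of 17 genes listed for fenestrated and peripheral endothelium, 13 had a row. Of these 9 (69.2%) were at 1 CPM or more, against 79% of all rows, and 2 (15.4%) at 100 CPM or more, against 12.1%. Besides Plvap, 1 member was at 100 CPM or more in every library: Igfbp3, an insulin-like growth factor binding protein gene, was at 858, 756, 765 and 872 CPM, with replicates 1 and 4 above 2 and 3. The water channel gene Aqp1 was at 110, 97.0, 96.4 and 105 CPM. Fatty acid handling genes of peripheral capillaries were low, with Fabp4 at 3.20 ± 0.900 CPM, Fabp5 at 1.10 ± 0.120 CPM and Gpihbp1 at 19.5 ± 3.26 CPM. Meox1 (0.339 ± 0.179 CPM) and Rgcc (0.167 ± 0.0898 CPM) had libraries at or below 3 counts.

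Of 10 transcription factor genes listed for brain endothelium, 6 had a row, 5 of these (83.3%) were at 1 CPM or more, against 79% of all rows, and 0 at 100 CPM or more in every library. Their median level was 8.11 CPM, against 13.6 CPM for all rows. Nr2f2 was the highest, at 95.0, 99.9, 101 and 113 CPM, and Ppard, a nuclear receptor gene, was at 36.5 ± 3.03 CPM. Lef1, a nuclear partner of beta-catenin found in barrier endothelium, was at 0.0798, 0.213, 0.193 and 0.322 CPM, or 1, 3, 3 and 4 counts. Foxf2 and Foxq1 were not analysed here.

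Several genes of both arterial and venous identity were abundant in the same cultures. Of 24 arterial genes, 19 had a row, with a median of 222 CPM. All 19 were at 1 CPM or more, against 79% of all rows, and 15 (78.9%) at 100 CPM or more, against 12.1%. The members below that were Gja4 (23.7 ± 3.02 CPM), Bmx (13.7 ± 2.27 CPM), Hey1 (9.49 ± 1.54 CPM) and Vegfc (4.54 ± 1.62 CPM). Some high members are shared with other lists, namely Sox17 and Epas1 with endothelial transcription factors and Acvrl1 and Nrp1 with receptors. Efnb2, encoding the arterial ephrin-B2, was at 274, 252, 243 and 251 CPM. Gja5, encoding the arterial connexin 40, was at 234, 246, 234 and 199 CPM, with replicate 4 the lowest. Ephb4, the venous receptor of ephrin-B2, was at 584, 578, 564 and 606 CPM and Nr2f2, the venous regulator, is given above.

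Of 16 venous genes, 10 had a row, with a median of 97.3 CPM. Of these 9 (90%) were at 1 CPM or more, against 79% of all rows, and 4 (40%) at 100 CPM or more, against 12.1%. By CPM, Ephb4 (583 ± 17.7) lay above Efnb2 (255 ± 13.4) in every library. Per length the order was reversed, with Efnb2 (255 ± 13.4 CPM per kb) above Ephb4 (195 ± 5.93) and no overlap between libraries. The order of Efnb2 and Ephb4 thus depends on the lengths used, 999 and 2991 bases. Nr2f2 (82.5 ± 6.33 CPM per kb) lay below both. Vwf and Emcn, which are shared with the pan-endothelial list, were 2 of the 4 venous genes at 100 CPM or more. The inflammatory venous genes Vcam1 (21.6 ± 2.13 CPM), Il1r1 (3.96 ± 2.11 CPM) and Icam1 (1.19 ± 0.362 CPM) were low. The venous genes Ackr1 and Aplnr were not analysed here, and neither were the arterial genes Hey2, Cxcr4 and Gkn3.

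Notch components spanned the family. Jag1, a ligand, led per length at 150 ± 14.8 CPM per kb, and its CPM of 563, 600, 558 and 472 gave it a CV of 9.88%, with replicate 4 the lowest. The receptors Notch1 (89.0 ± 3.07 CPM per kb) and Notch4 (83.2 ± 2.03), the form most restricted to endothelium, overlapped. The arterial ligand Dll4 was at 72.9 ± 2.73 CPM per kb, below Notch4 in every library, and Dll1 (34.9 ± 1.75) and Jag2 (34.3 ± 1.33) overlapped. Notch2 was at 3.22 ± 0.323 CPM per kb, 10.7-fold below Jag2, and Notch3, the receptor of mural cells, at 0.129 ± 0.0664. The Notch target gene Hey1 was at 9.49 ± 1.54 CPM, with replicates 1 and 2 above 3 and 4.

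**Figure D3:**
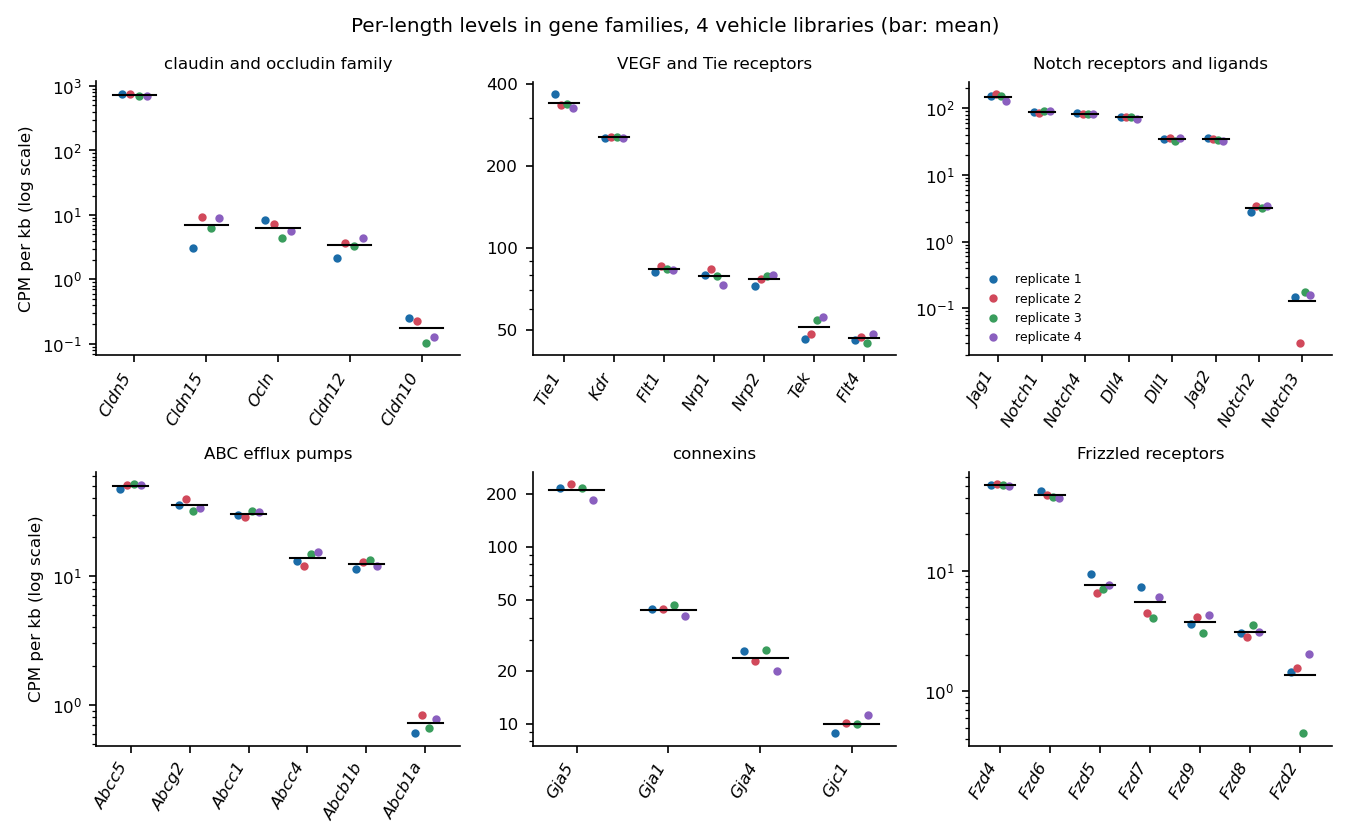
CPM per kb (log scale, a separate axis for each panel) of the members of 6 gene families in each of the 4 vehicle libraries, with the mean as a bar. Cldn5 stands 105-fold above the next claudin, Abcb1b 17.2-fold above Abcb1a, Gja5 4.77-fold above Gja1 and Fzd4 1.21-fold above Fzd6, each with no overlap between libraries. By CPM, Fzd4 and Fzd6 overlap.

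Of 13 listed lymphatic genes, 6 had a row and all 6 were at 1 CPM or more, against 79% of all rows. Only Flt4 and Nrp2 (212 ± 8.24 CPM), which is also venous, were at 100 CPM or more (33.3%, against 12.1%). The other members were Lyve1, Sned1 (26.9 ± 2.95 CPM), Itga9 (10.4 ± 2.35 CPM) and Foxc2. The defining lymphatic transcription factor gene Prox1 was not analysed here, and neither were Pdpn, Ccl21a and Reln.

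The connexins, which form gap junctions, were each separate from the next per length: Gja5 (212 ± 18.9 CPM per kb), Gja1 (44.4 ± 2.64), Gja4 (23.6 ± 3.02) and Gjc1 (10.0 ± 0.976). Gja1 is also an astrocyte gene. Among genes of sprouting tip cells, 14 of 16 had a row. Of these 4 (28.6%) were at 100 CPM or more, against 12.1% of all rows, namely Col4a1, Col4a2, Flt1 and Dll4. Apln, the ligand gene apelin, was at 91.0, 88.7, 75.8 and 93.9 CPM, or 373 ± 34.1 CPM per kb. Angpt2, which destabilises vessels, was at 2.87, 3.83, 6.96 and 6.29 CPM, where replicates 1 and 2 lay below 3 and 4. Esm1 was at 1.26 ± 0.559 CPM.

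Of 22 genes listed for the receiving side of Norrin and Wnt signalling, 19 had a row and 16 of these (84.2%) were at 1 CPM or more, a share near the 79% of all rows. The median level was 16.8 CPM, against 13.6 CPM for all rows. At 100 CPM or more were 4 members (21.1%), against 12.1% of all rows. They were Ctnnb1, the coreceptor genes Lrp5 (496 ± 13.1 CPM) and Lrp6 (145 ± 3.33 CPM), and Adgra2 (300 ± 17.3 CPM), encoding the Wnt7 coreceptor GPR124. Fzd4, the Norrin receptor gene, was at 82.9, 84.3, 83.3 and 80.9 CPM and Fzd6 at 89.1, 82.0, 79.3 and 77.3 CPM. Their CPM values overlapped, but per length Fzd4 (51.3 ± 0.891 CPM per kb) lay above Fzd6 (42.4 ± 2.67) in every library. That gap rests on the lengths used, 1614 and 1933 bases. Per length Fzd6 lay 5.53-fold above Fzd5. Tspan12, which boosts Norrin signalling at FZD4, was at 16.8 ± 1.57 CPM and Reck, the partner of GPR124, at 8.23 ± 1.06 CPM. The TCF/LEF factors differed, with Tcf7l2 at 64.1 ± 4.65 CPM, Tcf7l1 at 44.2 ± 2.50 CPM, Tcf7 at 4.70 ± 1.57 CPM and Lef1 under 1 CPM. The target gene Axin2 was at 0.639, 0.142, 0.258 and 0.403 CPM, so replicates 1, 3 and 4 were above and replicate 2 was below the level of 3 counts.

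Of 21 genes listed for haemostasis and vessel tone, 19 had a row. All 19 were at 1 CPM or more, against 79% of all rows, and 7 (36.8%) at 100 CPM or more, against 12.1%. Of the anticoagulant genes, Thbd, encoding thrombomodulin, was at 235 ± 12.5 CPM and Procr, the endothelial protein C receptor gene, at 201 ± 9.83 CPM. Plau, the urokinase gene, was at 381 ± 5.25 CPM and Plat, the tissue plasminogen activator gene, at 9.72 ± 0.877 CPM. Per length these were at 293 and 5.79 CPM per kb, with Plau the higher in every library. Edn1, encoding the vasoconstrictor endothelin-1, was at 12.8 ± 1.82 CPM, while its processing enzyme gene Ece1 was at 508 ± 8.96 CPM.

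For leukocyte adhesion, 14 of 15 members (93.3%) were at 1 CPM or more, against 79% of all rows. A further limit of 100 CPM was met by 4 (26.7%), against 12.1%. The constitutive members Podxl (394 ± 13.6 CPM), Bsg (385 ± 13.4 CPM) and Icam2 (244 ± 9.91 CPM) stood at the top with Cxcl12, the chemokine gene, at 264, 253, 242 and 218 CPM. The cytokine-inducible genes had Selp at 92.4 ± 8.37 CPM, Sele at 20.4, 20.6, 14.8 and 21.1 CPM and Icam1 at 1.12, 1.49, 0.709 and 1.45 CPM. Sele was lowest in replicate 3, below a narrow group of the other libraries.

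Basement membrane genes were abundant, with 19 of 19 at 1 CPM or more, against 79% of all rows. Members at 100 CPM or more numbered 16 (84.2%), against 12.1%. Those at 1000 CPM or more numbered 8, against 0.531% of all rows. Fn1, the fibronectin gene, was at 6349, 6261, 6095 and 6193 CPM, rank 11. Col4a1 and Col4a2, the collagen IV chains of vascular basement membrane, were at 5982 ± 180 and 3410 ± 111 CPM, and Col18a1, the source of endostatin, at 3101 ± 168 CPM. The summed level of the list was 26696 to 28197 CPM. Sparc, a matricellular glycoprotein gene, was highest of the list per length, at 2037 ± 64.2 CPM per kb. The laminin chains ran per length from Lamc1 (225 ± 3.36 CPM per kb) over Lama5 (160 ± 2.25), Lamb2 (95.2 ± 3.42) and Lamb1 (30.9 ± 0.983) to Lama4 (10.0 ± 1.14), each separate from the next.

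Of genes linked to mesenchymal transition, 12 of 15 had a row. Those at 100 CPM or more numbered 5 (41.7%), against 12.1% of all rows. Vim, encoding the intermediate filament vimentin that endothelial and mesenchymal cells share, was the protein-coding gene with the highest CPM at 14784, 14672, 13913 and 13022 CPM, rank 5. The repressor genes Zeb1 (167 ± 7.33 CPM) and Zeb2 (108 ± 6.10 CPM) were present, whereas Snai1 was at 7.51 ± 0.992 CPM and Snai2 at 2.94 ± 0.683 CPM. The contractile gene Acta2 was at 1.04, 1.98, 4.06 and 3.55 CPM and Cnn1 at 0.328 ± 0.263 CPM.

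The list for proliferation holds 22 genes, among them Trp53, Cdkn1a and Cdkn2a. All 22 were at 1 CPM or more, against 79% of all rows, and 6 (27.3%) at 100 CPM or more, against 12.1%. Mki67, a nuclear protein gene of cycling cells, was at 1178, 1235, 1239 and 1215 CPM, rank 65, and Top2a, a topoisomerase gene of S phase and mitosis, at 753 ± 27.7 CPM. The D-type cyclin gene Ccnd1 was at 418 ± 26.2 CPM, while Pcna was at 27.3 ± 1.65 CPM. Trp53 was at 72.1 ± 9.62 CPM, its target Cdkn1a at 70.2 ± 5.42 CPM and the tumour suppressor gene Cdkn2a at 25.7 ± 2.20 CPM. Ccnb1 was at 7.35, 10.7, 10.8 and 10.9 CPM, with replicate 1 the lowest. The Y-linked genes Ddx3y (126 ± 7.23 CPM), Kdm5d (58.3 ± 3.38 CPM), Eif2s3y (46.5 ± 6.29 CPM) and Uty (36.8 ± 6.22 CPM) were present in every library, and Xist was not analysed here.

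Markers of other cell types were examined lineage by lineage, and many of them had no row. Of 14 mural genes, 6 had a row, 2 were at 1 CPM or more and their summed level was 6.87 to 10.7 CPM. The pericyte receptor gene Pdgfrb was at 0.479, 0.0709, 0.451 and 0.806 CPM and the smooth muscle myosin gene Myh11 at 1.44, 0.425, 0.773 and 1.53 CPM. Rgs5, Kcnj8, Cspg4 and Tagln were not analysed here. Of 13 fibroblast genes, 4 had a row, 2 were at 1 CPM or more and the sum was 5.67 to 8.70 CPM. Col1a1, the collagen I gene, was at 0.319, 0.496, 0.258 and 1.05 CPM, and Pdgfra was at 6.71, 2.62, 2.90 and 4.11 CPM, with replicate 1 the highest.

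Of 15 microglia and macrophage genes, 4 had a row. Cd68, a lysosomal membrane protein gene, was at 93.2, 90.6, 101 and 92.9 CPM, with replicate 3 the highest. The more restricted members Csf1r (0.711 ± 0.343 CPM) and Tmem119 (0.301 ± 0.181 CPM) were below 1 CPM on average, and Ptprc, Aif1 and Cx3cr1 were not analysed here.

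Of 13 neuronal genes, 6 had a row and 3 were at 1 CPM or more in every library. Gad2, encoding an enzyme that makes the transmitter GABA, was at 66.0, 60.5, 64.0 and 65.2 CPM, rank 3121. Per length Gad2 was at 36.4 CPM per kb, above Slc2a1 at 25.5 CPM per kb with no overlap between libraries. Nefl, the neurofilament light chain gene, was at 37.1, 35.6, 39.3 and 38.4 CPM, rank 4760. Their spread was small, with a CV of 3.84% and 4.28%. The other members were low, with Stmn2 at 4.47 ± 1.27 CPM, Tubb3 at 1.44 ± 1.12 CPM, Nefm, the partner filament of Nefl, at 0.719 ± 0.328 CPM and Eno2 at 0.551 ± 0.404 CPM. Rbfox3, Snap25, Syt1 and Gad1 were not analysed here.

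Of 11 astrocyte genes, 5 had a row. Gja1, encoding connexin 43, which endothelial cells also make, was at 51.1, 51.7, 54.2 and 46.9 CPM, and Glul, the glutamine synthetase gene, was at 23.7 ± 3.50 CPM. Fgfr3 (1.24 ± 0.337 CPM), S100b (0.507 ± 0.613 CPM) and Aldoc (0.233 ± 0.182 CPM) were lower, and Gfap, Aqp4 and Aldh1l1 were not analysed here. Of 9 oligodendrocyte genes, 1 had a row, Cnp at 20.7 ± 1.94 CPM. Of 12 epithelial genes, 1 had a row, Krt19 at 0.0798, 0.142, 1.35 and 0.645 CPM. Of 11 haematopoietic genes, 3 had a row: Itga2b at 8.08 ± 1.88 CPM, Runx1 at 5.96 ± 1.25 CPM and Pf4 at 0.967 ± 0.182 CPM. Of the members with a row, 33.3% of the mural, 40% of the astrocyte, 50% of the fibroblast, microglia and neuron and 66.7% of the haematopoietic genes were at 1 CPM or more in every library, against 79% of all rows. The single oligodendrocyte gene was at that level and the single epithelial gene was not.

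By CPM the most abundant rows were structural and other non-coding RNAs. The mitochondrial rRNA mt-Rnr2 was at 29666, 28259, 21143 and 39358 CPM, with replicate 4 the highest and replicate 3 the lowest. The 7SL RNA genes Rn7s1 and Rn7s2, which encode the RNA of the signal recognition particle, were at 22282 ± 1186 and 16857 ± 3612 CPM and are near-identical copies, so the split between them is uncertain. The RNase P RNA gene Rpph1 was at 7966 ± 170 CPM and the long non-coding RNA Malat1 at 10008, 10942, 12752 and 10773 CPM, with replicate 3 the highest.

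Protein-coding genes other than histone, ribosomal protein and mitochondrial ones held 83.3 ± 0.824% of counts (SD, n = 4), mitochondrial rRNA 4.61 ± 0.766%, 7SL RNA 3.91 ± 0.421% and long non-coding RNA 1.98 ± 0.187%. Mitochondrial mRNA held 1.24 ± 0.0068%, the class with the lowest CV (0.551%), and was led by COX1 at 3801 ± 67.3 CPM and ND5 at 2097 ± 32.3 CPM. Ribosomal protein genes, taken by name, held 0.863 ± 0.0107%. Copies under other names, such as Rpl37rt at 383 ± 17.2 CPM, were counted in other classes, so this share leaves out their reads. Histone genes held 0.638 ± 0.0211%, led by Hist1h1c at 429 ± 22.5 CPM. Transfer RNA held 0.288, 0.182, 0.226 and 0.188%, with replicate 1 the highest. The 10 most abundant rows held 14.0 ± 0.872% of counts, the first 100 held 29.7 ± 0.782% and the first 1000 held 59.6 ± 0.511%.

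**Figure D4:**
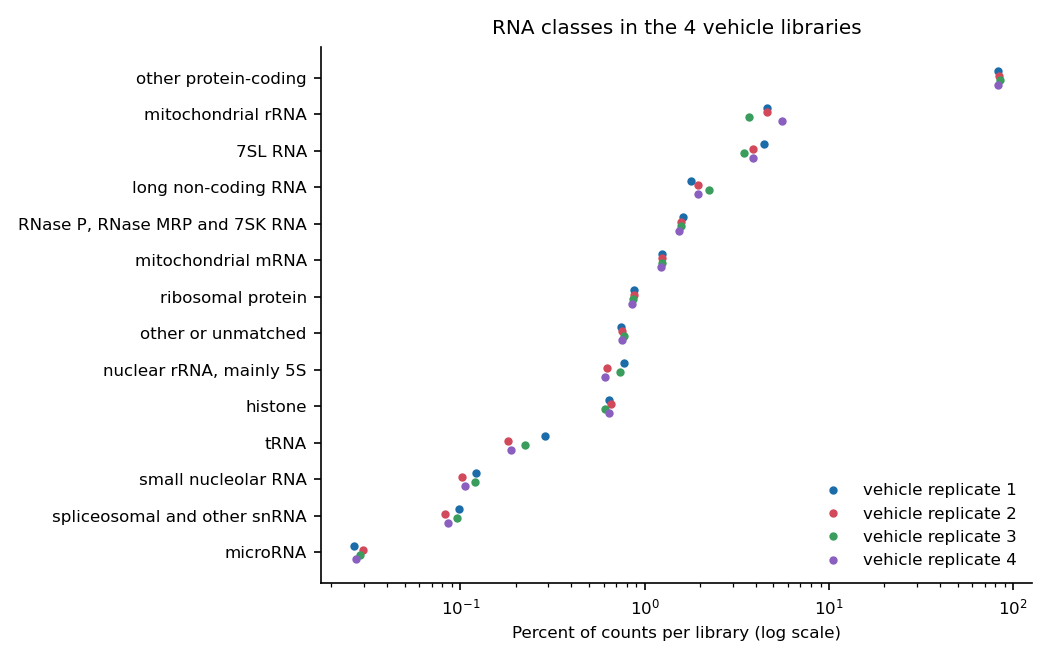
Percent of counts (log scale) in each RNA class in each of the 4 vehicle libraries. Mitochondrial rRNA ranges from 3.67 to 5.55% and tRNA from 0.182 to 0.288%, while mitochondrial mRNA stays between 1.23 and 1.25%.

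After Vim, the highest protein-coding genes by CPM were cytoskeletal and matrix genes. The cytolinker gene Plec was at 8768 ± 283 CPM, Actb, encoding beta-actin, at 6372 ± 148 CPM, and Myh9, encoding the heavy chain of non-muscle myosin IIA, at 6335 ± 172 CPM. Per length the order changed. Vim (10062 ± 582 CPM per kb) and Actb (5649 CPM per kb) remained at the top, followed by the actin-binding peptide gene Tmsb4x (4098 CPM per kb), the calcium-binding protein gene S100a6 (2850), the ribosomal protein gene Rplp1 (2742) and Sparc. Plec fell to 643 CPM per kb.

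Glycolytic genes, often used as references, were uneven. Aldoa (549 ± 26.0 CPM per kb) and Pkm (294 ± 6.17) led, and Gapdh was at 82.1 ± 2.92 CPM per kb, or 90.2 CPM, below Actb at 5649 CPM per kb. Gapdh and several ribosomal protein genes have many near-identical pseudogenes, and reads may be split among copies. Rpl37 was at 6.97 CPM while its retrocopy Rpl37rt was at 383 ± 17.2 CPM, and Rpl34 was at 1.11 CPM while the pseudogene Rpl34-ps1 was at 276 CPM. Levels of such genes are therefore uncertain.

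The 4 cultures were close to each other. The common dispersion of edgeR gave a biological coefficient of variation of 9.34% over 12598 genes. Among the 8548 rows at a mean of 10 CPM or more, the median CV was 7.43%, and 338 rows (3.95%) had a CV of 20% or more. Pairs of libraries had a Pearson correlation across genes of 0.986 to 0.990 on the log2 scale, where genes are not independent replicates. Between pairs, 1.23 to 2.49% of detected rows differed by 2-fold or more. Replicate 1 lay slightly farther from the others, with a median absolute log2 difference of 0.0979 from them against 0.0886 to 0.0910 for the other libraries, and no library stood apart. The median CV fell with level, from 32.6% at 1 to 3 CPM, where counting error alone gives 20.4%, to 4.56% at 100 to 300 CPM, where counting error gives 2.20%, and 2.50% above 1000 CPM.

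**Figure D5:**
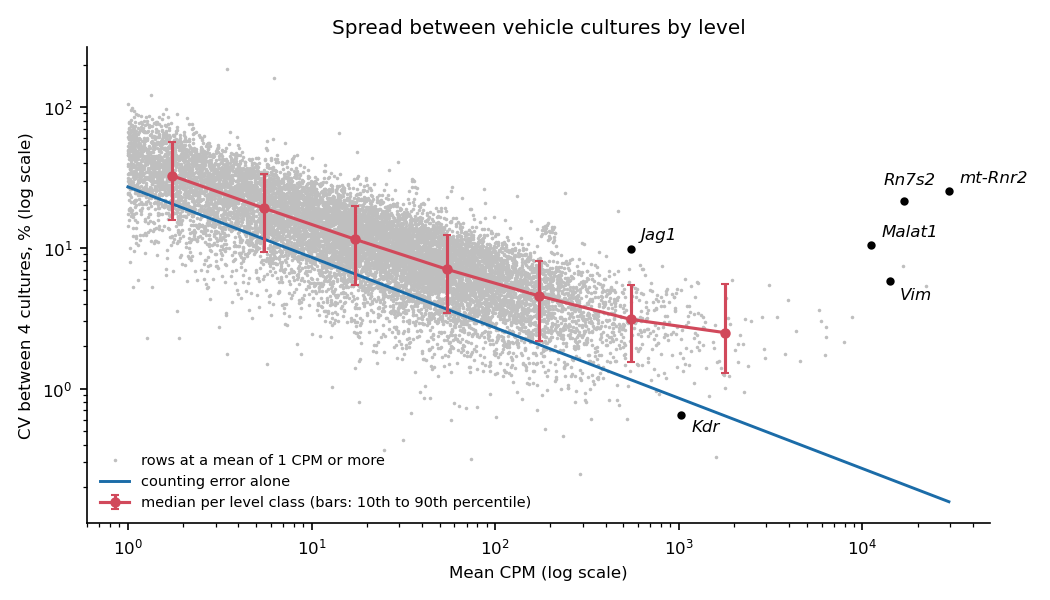
CV between the 4 vehicle cultures (log scale) against mean CPM (log scale) for rows at 1 CPM or more, with the median and the 10th to 90th percentile per level class in red and the CV that counting error alone gives in blue. Kdr, at a CV of 0.651%, lies below the red line, while mt-Rnr2 (25.3%), Rn7s2 (21.4%) and Malat1 (10.5%) lie above it.

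The steadiest and the most variable genes were taken among rows with an established symbol. Such a symbol was matched to RefSeq and was not a provisional name, such as those of the Gm, LOC or Rik kind. The steadiest protein-coding genes at a mean of 100 CPM or more included Kdr, with a CV of 0.651%. Plxnd1, the semaphorin receptor gene of endothelium, was at 1598, 1603, 1594 and 1591 CPM with a CV of 0.328%. The splicing factor gene Sf1 had the lowest CV of these genes, 0.249%, at 288 ± 0.719 CPM. These CVs lie below the counting error of their level, and control of the level was not tested. The tight junction scaffold gene Mpdz was at 101, 99.6, 100 and 101 CPM.

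Of the 12 most variable rows with an established symbol at a mean of 10 CPM or more, 7 were protein-coding and 5 were tRNA rows. Akap2, encoding a kinase anchoring protein, was at 26.5, 8.08, 16.1 and 5.96 CPM, a CV of 65.8%, with replicate 1 the highest and replicate 4 the lowest. Clk2-scamp3, a readthrough row of neighbouring genes, was at 28.3, 13.3, 40.2 and 37.1 CPM, with replicate 2 the lowest, and its reads cannot be told from those of its parts. Tnfsf12, encoding the cytokine TWEAK, was at 12.7, 5.95, 12.6 and 15.7 CPM, also lowest in replicate 2, and Slc38a7, an amino acid transporter gene, was at 26.0, 16.7, 16.2 and 12.4 CPM, highest in replicate 1. All 5 tRNA rows were highest in replicate 1, the library with the highest tRNA share.

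At a mean of 100 CPM or more, the largest CV of a protein-coding gene with an established symbol was 15.8%. It was that of Zc3h7a, at 90.9, 128, 128 and 108 CPM. Pcsk5, a proprotein convertase gene, was at 131, 133, 125 and 96.5 CPM, lowest in replicate 4. Among the listed genes at 100 CPM or more in every library, the matrix gene Col8a1 had the largest CV, 10.8%, at 315, 322, 308 and 251 CPM, and the endothelin receptor gene Ednrb followed with 10.1%, at 114, 103, 112 and 131 CPM. Jag1, Gja5, Epas1 and Col8a1 were each lowest in replicate 4, and Tek and Ednrb were highest there.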

How the data were processed

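RNA-seq libraries of 8 bEnd.3 cultures were made, and the 4 vehicle libraries were analysed. The deposited table holds, per gene, the estimated count in every library before any normalisation, and a vehicle RPKM, which is the authors' value over the 4 replicates. Its column of folds between groups, a deposited ratio, was not used. The submitters' processing notes name the aligner STAR and no version of it. Genome build, annotation, counting tool and strand setting: not given in the sources used here. Levels of overlapping, antisense and near-identical genes are therefore uncertain.

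Of 61808 vehicle counts, 378 were not whole, and all were rounded to whole numbers. The 15452 named rows were kept and 1 row without counts was left out. Another 20 rows carry dates as names and 20 share a name, and none of these is named here. A few listed genes are counted in their lists but their levels are not reported here. CPM was computed from library totals over all named rows, scaled by TMM factors from edgeR 4.0.16 in R 4.3.3. The factors were taken from the 12598 rows that passed filterByExpr. Scaling shifts are given in the closing section. Per-length levels divide CPM by the length implied by the deposited RPKM. That length lay within 1 base of a GENCODE coding length for 3487 of 8091 coding genes compared (43.1%) and within 5% for 5433 (67.1%), so per-length values carry that uncertainty.

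A gene counted as detected at 1 CPM or more in each of the 4 libraries. No test between groups was made, since 1 group is described. Related genes were called separate only where their 4 per-length values did not overlap. That rule covers the spread between libraries and not the uncertainty of the lengths. The spread was taken from estimateDisp of edgeR with an intercept only after filterByExpr, a step tested on simulated data. Gene classes and older names came from RefSeq, which matched 14782 rows (95.7%). In all, 30 gene lists with 471 entries (424 genes) were used, of which 340 entries (299 genes) had a row. The members and the lists were chosen with earlier results of these data known. Named genes were the 6 markers, the rows highest by CPM and per length, also among coding genes alone, list members (all members of short and other-lineage lists, otherwise mainly the highest and lowest), the most variable rows and the highest rows of each RNA class. The gene families, the steadiest genes, the most variable genes at 100 CPM or more, and the list members outside that rule, such as Gja5, Ocln, Mpdz, Jag2 and Cdkn2a, were named after their values were seen. Alternatives were DESeq2 1.42.0 size factors, unscaled totals, other thresholds and filters, and each library left out in turn.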

Additional observations from a re-analysis of the deposited data

Results flagged for a closer look

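Each of 467 levels and sums was examined for a single distant library among the 4, and 15 (3.21%) had one. Chance alone flags about 1 in 20 groups of samples. Replicate 1 was the distant library in 5 values, replicates 2 and 3 in 4 each and replicate 4 in 2. No explanation was weighed.

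In replicate 1, Pecam1 was at 1588 CPM against 1519 to 1527 CPM elsewhere, the summed leukocyte adhesion list at 1687 against 1625 to 1636 CPM, the tRNA row n-TGccc7 at 78.7 against 48.5 to 53.0 CPM, Jup, the plakoglobin gene, at 11.9 against 14.0 to 14.3 CPM and Ccnb1 at 7.35 against 10.7 to 10.9 CPM. In replicate 2, Mir5114 was at 32.5 against 27.3 to 28.0 CPM, the chemokine receptor gene Ackr3 at 24.2 against 27.4 to 28.0 CPM, S100b at 1.42 against 0.129 to 0.319 CPM and Bmpr1a at 1.06 against 0.129 to 0.161 CPM. The S100b and Bmpr1a values rest on few counts.

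In replicate 3, the ribosomal protein gene Rpl8 was at 1051 against 1133 to 1139 CPM, the linker histone gene Hist1h1d at 332 against 371 to 375 CPM, the lipoprotein receptor gene Lrp8 at 51.2 against 54.6 to 55.0 CPM and the selectin gene Sele at 14.8 against 20.4 to 21.1 CPM. In replicate 4, Slc2a1 was at 44.2 against 35.1 to 35.6 CPM and the leptin receptor gene Lepr at 2.02 against 1.28 to 1.36 CPM.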

How the results depend on the processing

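The number of rows detected was 12207 at 1 CPM with TMM, with DESeq2 size factors and with unscaled totals, 13110 at 0.5 CPM, and 8084 at 10 CPM. With 1 library left out in turn it was 12281 to 12413. List entries detected numbered 305, and 253 to 316 over the alternatives, with 306 to 309 when a library was left out. At 10 CPM, 5 of the 30 list counts moved by over 1.5 times. The biological coefficient of variation of 9.34% was 9.99% with no filter and 7.72% with a stricter filter of 10 CPM on the mean, and 8.56 to 9.80% with 1 library left out, lowest without replicate 1. The median CV of 7.43% was 10.5% for rows at 1 CPM or more and 4.15% at 100 CPM or more, and 6.68 to 6.98% over 3 libraries. The share of counts in the first 100 rows was 29.47 to 30.04% with 1 library left out. Library totals without rRNA, 7SL, RNase P, RNase MRP and 7SK rows, an alternative chosen after seeing the data, multiplied every level by a median of 1.12 (0.16 on the log2 scale) and gave 12351 rows detected. It moved the level of 298 of 425 named rows by over their SD, while DESeq2 size factors and unscaled totals moved none. Ranks moved beyond the spread for 374 of 425 named rows when taken per length. Ranks per kilobase of RefSeq transcript could not be computed, since the RefSeq table gives gene spans, and the longest GENCODE transcript, also chosen after seeing the data, moved 339 of 398 ranks. Levels under 0.242 CPM rest on 3 counts or fewer. No paired analysis was possible because 1 group is described and no test was made.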

Other observations

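Beyond the genes of the report, microRNA rows held 0.0280 ± 0.0015% of counts (SD, n = 4), led by Mir682 at 87.0, 92.3, 88.6 and 85.5 CPM, with replicate 2 the highest. Small nucleolar RNA held 0.122, 0.102, 0.120 and 0.106% of counts, and the other small nuclear RNAs 0.0987, 0.0826, 0.0966 and 0.0862%, so both classes were higher in replicates 1 and 3 than in 2 and 4. Nuclear rRNA, mainly 5S, was at 0.777, 0.628, 0.740 and 0.612%, and the Y RNA row Rny3 at 339, 274, 326 and 281 CPM, both again higher in replicates 1 and 3.

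Of the 2 mitochondrial rRNA rows, mt-Rnr1 was at 17193, 17716, 14899 and 16398 CPM, a CV of 7.42%, and mt-Rnr2 had a CV of 25.3%. Both were lowest in replicate 3. The mitochondrial mRNAs varied less, with a CV of 1.10% for ND1 and 1.77% for COX1. The nuclear long non-coding RNA Neat1 was at 351, 450, 544 and 512 CPM, lowest in replicate 1 as Malat1 was.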
